A study of Mus musculus with 2 samples.

Results

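TGF-beta signaling and Ankrd1 were described through 10 genes of the 20002 in the table: the ligand genes Tgfb1, Tgfb2, Tgfb3 and Inhba, the receptor genes Tgfbr1 and Tgfbr2, the inhibitor gene Smad7, and Ltbp2, Tgfbi and Ankrd1. They were selected by name, with earlier results of these libraries known. The values that chose them were therefore the differences between the same 2 libraries described here, and these values are given as a description with no test.

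RNA from whole kidneys of mice was sequenced as poly(A)-selected, stranded libraries, 1 labelled Control and 1 labelled CKO. The CKO label names a proximal tubule conditional knockout of Regnase-2, the product of Zc3h12b. The methods describe C57BL/6J mice that received, at 11 weeks of age, AAV9 with an shRNA against Regnase-2 through the tail vein, which is a knockdown. The AAV9 methods describe the transduction of proximal tubules as preferential. Control mice received AAV9 with a control shRNA in one methods section and an empty vector in another. The age at collection is given as 14 weeks in the sequencing methods and as 16 weeks in the AAV9 methods. The labels list no further treatment. Whether a library came from 1 mouse or from a pool is not stated, and there are no replicates.

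The transforming growth factor beta ligands are secreted in a latent complex, held in the matrix by latency proteins and released by integrins, proteases and thrombospondin. Active ligand joins the type II receptor TGFBR2 to the type I receptor TGFBR1, which phosphorylates SMAD proteins that enter the nucleus with SMAD4. In the kidney the pathway is known for its place in fibrosis, where it raises matrix genes in fibroblasts and alters injured tubule cells. Ankrd1 encodes an ankyrin repeat protein of the nucleus and the sarcomere, and is a widely used readout of the coactivator YAP, which binds DNA through TEAD factors.

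Reads here are the deposited values minus a constant for each library, 34 for Control and 50 for CKO. That these constants were added to read counts is an inference from lowest values of 35 and 51. The sums were 38851231 reads for Control and 43588721 reads for CKO. To put both libraries on one scale, CKO reads were brought to scaled reads with a factor of 0.667, which is the median gene's Control reads divided by its CKO reads. Log2 ratios of CKO over Control had a pseudocount of 1. Folds had none, and their 95% Clopper-Pearson intervals cover counting error only. These intervals treat the values as counts of reads. The authors call the deposited values normalized counts, and if these were rescaled, the intervals do not measure counting error. A gene was kept when either library had 10 or more scaled reads, which left 17469 genes. All 10 members were kept, Inhba only through the CKO library.

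At least 2-fold higher in CKO were 5 of the 10 members, beside 2334 of the 17469 kept genes (13.4%). At least 2-fold lower were 0 of the 10, beside 934 genes (5.35%). The members' median log2 ratio was 1.45 and that of all kept genes was 0.02. Since the members were chosen with this contrast known, nothing is read from these shares. The member just inside the 2-fold threshold was Tgfb2, with a log2 ratio of 1.93, and the member just outside it was Tgfb1, with 0.98.

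The scaling sets where a ratio of 0 lies. With totals made equal, the median log2 ratio of all kept genes moved from 0.02 to 0.44. With unadjusted values, meaning the deposited numbers with nothing subtracted and no scaling, it was 0.59. With equal upper quartiles it was 0.05. With equal totals 7 of the 10 members were at least 2-fold higher, beside 3870 genes higher and 437 lower. With unadjusted values 9 members were higher, beside 3574 genes higher and 131 lower. The log2 ratios of the 10 members were above 0 under each of these scalings, with a constant 2 reads smaller subtracted, and with either other pseudocount tried. The interval of Tgfbr2 included 0 under the main scaling.

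**Figure D1:**
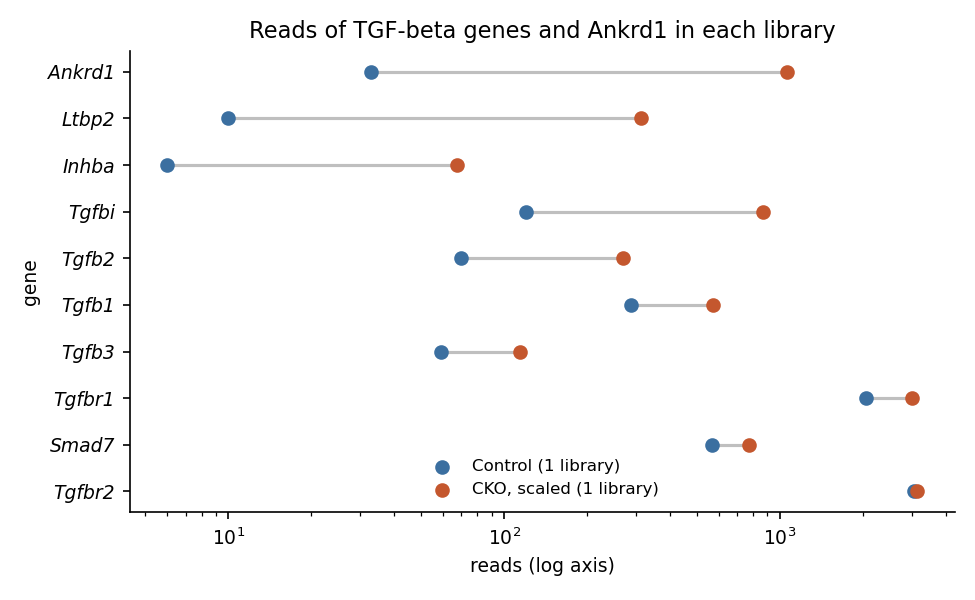
Reads of each member in the Control library and scaled reads in the CKO library, on a log axis, in order of their log2 ratio. Each point is 1 library, and the distance between the points of a row runs from 33 to 1059 for Ankrd1 and from 3065 to 3143 for Tgfbr2.

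Ankrd1 (Entrez gene 107765) had 33 reads in Control and 1589 reads in CKO, which is 1059 scaled reads. The fold was 32.1 with an interval from 22.8 to 46.8. The log2 ratio was 4.96, at rank 12 of the 17469 kept genes in descending order. Ankrd1 was thus sparsely covered in Control and well covered in CKO. Per kilobase of its longest annotated transcript, Ankrd1 had 16.3 reads in Control, above 15.0% of the 14356 kept genes with a known length. In CKO it had 524 scaled reads per kilobase, above 74.0% of those genes.

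The genes nearest to Ankrd1 in the order of log2 ratios over these 2 libraries were Clec12a, Cxcl1 and Arhgap36 above it and Npy6r, Ltbp2 and Krt19 below it. Clec12a differed from Ankrd1 by 0.05 in log2 ratio, with 6 reads in Control and 338 in CKO. Cxcl1 differed by 0.20, with 25 and 1395 reads. Arhgap36 differed by 0.21, with 2 and 161 reads, and its fold of 53.7 has an interval from 14.6 to 447. On the other side, Npy6r differed by -0.01, with 8 and 416 reads. Ltbp2 differed by -0.13. Krt19 differed by -0.28, with 38 and 1506 reads. The intervals of all 6 genes overlapped that of Ankrd1, so their order is not resolved at this depth. Clec12a, Arhgap36 and Npy6r were kept only through the CKO library, and so had to differ.

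Ankrd1 lies on chromosome 19 from 36111965 to 36119844 in the GRCm38.p6 annotation of RefSeq. Its nearest kept neighbours, chosen by position after the values were seen, moved little under the main scaling. Rpp30, 7.19 kb away, had 192 and 370 reads, for a log2 ratio of 0.36. On the other side Pcgf5, 228 kb away, had 607 and 1261 reads, for a log2 ratio of 0.47. Neither neighbour passed 2-fold under that scaling, while Ankrd1 between them passed it by far.

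Promoters of 4 members at least 2-fold higher are shown because their windows held motif letters, so nothing is read from their having them. Inhba, also at least 2-fold higher, is not shown because its window held 0 matches. RefSeq promoters of 300 bases, from 250 before to 50 after the start site, were available for 8 of the 10 members, with 9 windows in all. Tgfb3 and Smad7 had no entry. Some windows were for start sites inside the gene. That of Inhba lay at 16011601 to 16011900, while its gene, on the plus strand, begins at 16004256. That of Tgfb2 lay at 186705940 to 186706239, while its gene, on the minus strand, begins at 186709697. The letters searched on both strands were CAGAC for SMAD, GTCTAGAC for the SMAD palindrome, GGAATG for TEAD and TGANTCA for AP-1. Among all 32851 promoters in the table, 49.6% held CAGAC, 0.213% held GTCTAGAC, 14.7% held GGAATG and 7.81% held TGANTCA. The SMAD letters are therefore common, and a match is a description of letters, not a binding site. The windows below are from GRCm38.p6, written 5′ to 3′ on the gene's strand, with matches to CAGAC or GGAATG in capitals. They lie at chr19:36119795-36120094 on the minus strand for Ankrd1, chr12:84876442-84876741 on the minus strand for Ltbp2, chr1:186705940-186706239 on the minus strand for Tgfb2 and chr13:56609336-56609635 on the plus strand for Tgfbi.
Ankrd1: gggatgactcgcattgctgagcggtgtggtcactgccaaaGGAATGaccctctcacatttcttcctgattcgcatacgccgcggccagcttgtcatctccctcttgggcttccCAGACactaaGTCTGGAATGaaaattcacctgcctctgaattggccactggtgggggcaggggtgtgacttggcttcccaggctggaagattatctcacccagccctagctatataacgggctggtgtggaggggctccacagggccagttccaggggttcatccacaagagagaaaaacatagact
Ltbp2: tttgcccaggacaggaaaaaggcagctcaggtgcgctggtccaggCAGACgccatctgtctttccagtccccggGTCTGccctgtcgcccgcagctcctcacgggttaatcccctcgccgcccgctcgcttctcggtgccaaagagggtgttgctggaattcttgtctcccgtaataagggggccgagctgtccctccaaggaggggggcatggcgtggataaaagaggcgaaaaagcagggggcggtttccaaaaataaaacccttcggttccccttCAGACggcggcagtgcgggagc
Tgfb2: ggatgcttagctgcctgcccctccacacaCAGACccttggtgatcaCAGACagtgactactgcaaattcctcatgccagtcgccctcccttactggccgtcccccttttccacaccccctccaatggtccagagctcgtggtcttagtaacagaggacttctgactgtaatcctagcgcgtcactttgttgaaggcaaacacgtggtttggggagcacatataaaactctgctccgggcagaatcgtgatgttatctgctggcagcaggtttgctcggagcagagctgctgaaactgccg
Tgfbi: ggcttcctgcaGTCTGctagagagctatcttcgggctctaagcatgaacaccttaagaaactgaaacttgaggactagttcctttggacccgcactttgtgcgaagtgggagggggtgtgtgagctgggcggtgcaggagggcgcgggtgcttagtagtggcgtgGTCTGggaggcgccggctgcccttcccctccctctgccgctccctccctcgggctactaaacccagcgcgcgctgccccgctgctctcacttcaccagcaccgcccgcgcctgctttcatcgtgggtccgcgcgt

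The Ankrd1 window held 2 matches to GGAATG, starting at bases 41 and 128, and 2 to CAGAC, starting at bases 114 and 124. The match at base 124 is on the reverse strand and shares 1 base with the GGAATG at base 128. Of all promoters, 1.36% held 2 or more matches to GGAATG, and 0.712% held these together with at least 1 CAGAC, a pairing counted after the Ankrd1 window was seen. Ankrd1 was the member with GGAATG in its window. Ltbp2 had 3 matches to CAGAC, Tgfb2 had 2 and Tgfbi had 2. Tgfbr2 had 1, and Tgfbr1 had 1 in the second of its 2 windows. The windows of Inhba and Tgfb1 had 0 matches to CAGAC, and none of the 9 windows held GTCTAGAC or TGANTCA. Of all promoters, 16.2% held 2 or more matches to CAGAC.

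Among the ligand genes, Tgfb1 encodes the isoform most studied in kidney fibrosis. Tgfb1 (Entrez gene 21803) had 288 reads in Control and 856 in CKO, or 571 scaled reads. The fold was 1.98 with an interval from 1.73 to 2.27, so the 2-fold threshold lies inside the interval. Tgfb2 (Entrez gene 21808), whose product binds the signaling receptors well only with a coreceptor such as betaglycan, had 70 reads in Control and 403 in CKO, or 269 scaled reads. Its fold was 3.84, from 2.97 to 5.02. Tgfb3 (Entrez gene 21809), the remaining isoform, had 59 and 171 reads, or 114 scaled reads in CKO. Its fold was 1.93, from 1.43 to 2.64. The intervals of Tgfb1 and Tgfb3 overlapped each other and lay below that of Tgfb2.

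Levels of the isoforms were compared per kilobase. In Control, Tgfb1 had 132 reads per kilobase, Tgfb3 had 17.4 and Tgfb2 had 13.7. In CKO the scaled values were 262 for Tgfb1, 52.5 for Tgfb2 and 33.7 for Tgfb3. Tgfb1 was thus the most abundant isoform in both libraries. The order of Tgfb2 and Tgfb3 in Control rests on 70 and 59 reads and was not tested. The sum of the isoforms was 164 reads per kilobase in Control and 349 in CKO, a ratio of 2.13.

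Inhba encodes the beta A subunit of activin and inhibin, and activin A signals through the same SMAD2 and SMAD3 as TGF-beta. Inhba (Entrez gene 16323) had 6 reads in Control and 101 in CKO, or 67.3 scaled reads. The fold was 11.2, with an interval from 4.98 to 31.3. With 6 reads in Control this interval is the widest of the 10 members on the log2 scale. The log2 ratio of 3.29 became 2.27 with a pseudocount of 10 and 1.89 with unadjusted values, both below the interval. Inhbb, for the beta B subunit, had 49 and 406 reads, for a log2 ratio of 2.44. Inha, for the alpha subunit that turns activin subunits into inhibin, had 25 and 99 reads, for a log2 ratio of 1.37; it was chosen after its value was seen. Per kilobase, Inhba was the least abundant of these subunit genes in both libraries, at 0.939 reads in Control and 10.5 scaled reads in CKO. Inhbb had 11.5 and 63.6, and Inha had 16.9 and 44.7.

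Of 32 ligand genes of the superfamily listed, 22 were in the table and 19 were kept. Of these, 8 were at least 2-fold higher and 1 was at least 2-fold lower, with a median log2 ratio of 0.94. Inhba, and Gdf6 and Gdf1, named after their values were seen, were kept only through the CKO library, with 6, 5 and 4 reads in Control, and so had to differ. The interval of Gdf1 included 0. With a filter at 50 scaled reads, 6 were higher and 0 lower. Without the members among them, 6 of 15 were higher and the median was 0.52. Gdf15, which encodes a stress-induced ligand of the brainstem receptor GFRAL, had a log2 ratio of 3.42, with 97 reads in Control and 1570 in CKO. Its interval overlapped that of Inhba, and the order of these genes turned with a pseudocount of 0.1, where Inhba had 3.47. At the low end, Bmp5 had 27 and 16 reads, for a log2 ratio of -1.26, Bmp7 had 1586 and 1735 reads and -0.46, and Lefty1 had 14 and 18 reads and -0.21. These ratios were above 0 with unadjusted values, and that of Lefty1, whose interval included 0, also with equal totals. Bmp4, the most abundant ligand gene per kilobase in Control, had 486 reads per kilobase there and 464 scaled in CKO, with a log2 ratio of -0.07 whose interval included 0 and that was above 0 with equal totals and with unadjusted values.

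The receptors among the members had smaller ratios than the ligands among them, though the intervals of Tgfb3 and Tgfbr1 overlapped. Tgfbr1 (Entrez gene 21812), the kinase that acts on SMAD2 and SMAD3, had 2047 reads in Control and 4511 in CKO, or 3007 scaled reads. Its fold was 1.47, with an interval from 1.39 to 1.55. Tgfbr2 (Entrez gene 21813), the ligand-binding partner of TGFBR1, had 3065 and 4714 reads, or 3143 scaled reads in CKO. Its fold was 1.03, from 0.980 to 1.07, and a difference was not detectable under this scaling. With equal totals its log2 ratio was 0.45 and with unadjusted values it was 0.62, both near the shift of all genes under those scalings.

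Of 14 superfamily receptor genes listed, 12 were kept, and 0 of 12 passed 2-fold in either direction under the main scaling. At least 2-fold higher were 2 with equal totals and 3 with unadjusted values. Their median log2 ratio was 0.17, from -0.12 for Acvr2b to 0.75 for Bmpr1b. Acvr1 had the second highest, 0.59, and the third highest was that of Tgfbr1. Eng, for the endothelial coreceptor endoglin, was the most abundant per kilobase in both libraries, at 872 reads in Control and 833 scaled reads in CKO. The intervals of Eng, at -0.07, and of Acvr2b included 0, and both ratios were above 0 with equal totals and with unadjusted values.

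**Figure D2:**
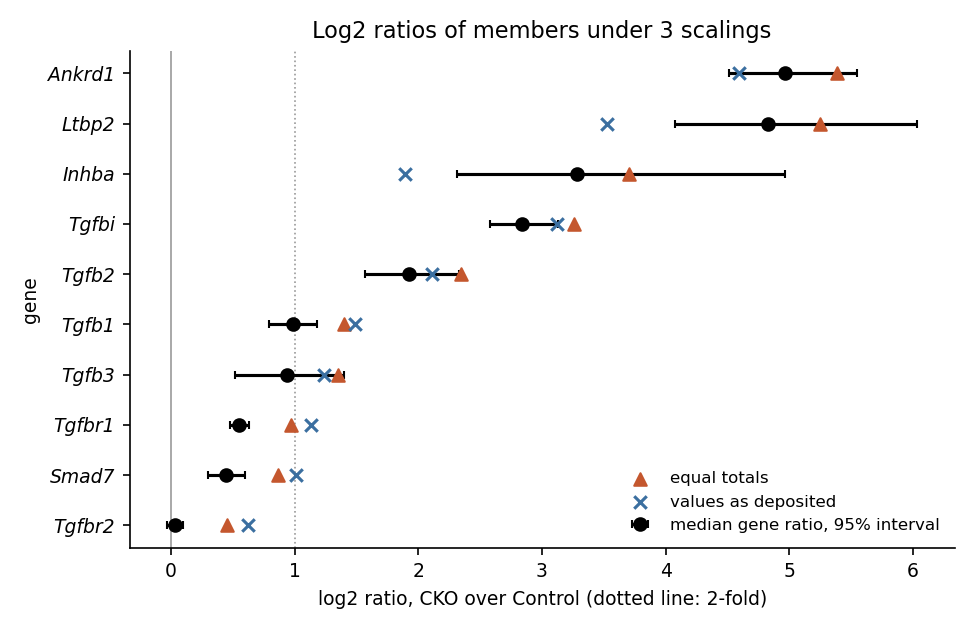
Log2 ratio of CKO over Control for each member with the 95% interval for counting error under the main scaling (black), with equal totals (triangles) and with unadjusted values, drawn as deposited (crosses). Every marker lies above 0, from 0.04 for Tgfbr2 to 5.38 for Ankrd1, and the lower end of the Tgfbr2 interval lies at -0.03.

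Smad7 encodes an inhibitory SMAD that blocks the type I receptor and is itself induced by the pathway. Smad7 (Entrez gene 17131, chromosome 18 from 75367365 to 75395935) had 565 reads in Control and 1158 in CKO, or 772 scaled reads. The fold was 1.37, with an interval from 1.23 to 1.51. This interval overlapped that of Tgfbr1 and lay above that of Tgfbr2. Of the 8 Smad genes, 0 passed 2-fold under the main scaling, 2 were at least 2-fold higher with equal totals and 5 with unadjusted values. Each of the 8 log2 ratios was above 0, with a median of 0.44. The largest was that of Smad9, 0.88, followed by 0.63 for Smad3, 0.57 for Smad1, 0.44 for Smad5, 0.26 for Smad2 and 0.25 for Smad6. Smad4, the common partner and the most abundant Smad per kilobase, had the smallest, 0.10. Relative to the median of all kept genes, the Smad median was 0.42 higher under the main scaling, with equal totals and with unadjusted values.

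Regulators inside the cell were listed as 15 genes, and 15 were kept. Under the main scaling 1 of the 15 was at least 2-fold higher, against 5 with equal totals and 6 with unadjusted values. It was Tgif2, a corepressor gene with 36 and 171 reads, for a log2 ratio of 1.64. The next were Skil with 0.74 and Pmepa1 with 0.68, both feedback inhibitors induced by TGF-beta. The lowest were Ppm1a with -0.25, Usp15 with -0.22 and Nedd4l with -0.20. Smurf2, a ubiquitin ligase gene and the most abundant per kilobase in Control, had -0.18. These negative ratios were above 0 with equal totals and with unadjusted values. The median of the list was 0.25.

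Ltbp2 belongs to the family of latent TGF-beta binding proteins, but unlike its relatives its product does not bind the latent ligand and sits on microfibrils. Ltbp2 (Entrez gene 16997) had 10 reads in Control and 468 in CKO, or 312 scaled reads. The fold was 31.2, with an interval from 16.8 to 65.5, and the log2 ratio of 4.83 was at rank 14. Ltbp2 had 4.01 with a pseudocount of 10 and 3.53 with unadjusted values, both below the interval. Its relatives, named after their values were seen, moved less: Ltbp3 had a log2 ratio of 0.92, Ltbp1 had 0.17 and Ltbp4 had 0.11, with an interval that included 0. Per kilobase, Ltbp2 went from 1.48 reads in Control to 46.1 scaled reads in CKO, while Ltbp1 had 73.6 and 82.8, Ltbp3 had 115 and 218, and Ltbp4 had 178 and 191. Ltbp2 was thus the family member with the fewest reads per kilobase in both libraries. Ltbp2, at 84783212 to 84876558, and Tgfb3, at 86056743 to 86079041, lie on chromosome 12 with 1180 kb between them.

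Of the 18 genes for latency and activation, 18 were kept, with 8 at least 2-fold higher, 0 lower and a median log2 ratio of 0.96. Without the member Ltbp2, 7 of 17 were higher and the median was 0.95. Fbn2, and Mmp9, named after its value was seen, were kept only through the CKO library, and so had to differ. Fbn2, a fibrillin gene, had 3 and 42 reads, whose fold of 9.33 has an interval from 2.98 to 47.1. Mmp2, for a matrix protease that can release TGF-beta, had 199 and 1749 reads and 2.54. The log2 ratio of Fbn2 was 2.86 and lay above that of Mmp2 under the main setting. With the smaller constant that of Fbn2 was 2.36, below the 2.55 of Mmp2 there. With unadjusted values Fbn2 had 1.29 and Mmp2 had 2.94. The lowest were Itgb6 with -0.62, Furin with -0.47 and Itgb8 with -0.19. Itgb6 and Itgb8 encode integrin subunits that activate latent TGF-beta, and furin cuts the precursor. Furin was the most abundant of the list per kilobase in Control, at 1485 reads against 1069 scaled reads in CKO. The ratio of Itgb6 stayed below 0 under each scaling, that of Furin was above 0 with unadjusted values, and that of Itgb8 also with equal totals.

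Inhibitors outside the cell or at its surface were listed as 14 genes, and 14 were kept. At least 2-fold higher were 5 and at least 2-fold lower was 1, with a median log2 ratio of 0.36. Fst, for the activin antagonist follistatin, had 183 and 1133 reads, for a log2 ratio of 2.04. Grem1, for a BMP antagonist, had 1.84, and Dcn, for the TGF-beta binding proteoglycan decorin, had 1.69. Chrdl1, another BMP antagonist gene, had 571 and 215 reads and -1.99. It stayed below 0 under each scaling. Nog, at -0.74 with an interval that included 0, was above 0 with unadjusted values. With 14 reads in Control and 8 scaled reads in CKO, Nog was kept only through the Control library and so had to be lower. Kcp, at -0.30, was above 0 with unadjusted values and with equal totals. Bgn, for the proteoglycan biglycan, was the most abundant per kilobase, with 1899 reads in Control and 4351 scaled reads in CKO.

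Tgfbi encodes a secreted matrix protein named for its induction by TGF-beta. Tgfbi (Entrez gene 21810) had 120 reads in Control and 1299 in CKO, or 866 scaled reads. The fold was 7.22, with an interval from 5.98 to 8.77, and the log2 ratio of 2.84 was at rank 231. Its interval overlapped that of Inhba and lay above that of Tgfb2. Per kilobase it rose from 44.2 reads to 319 scaled reads, which placed it above Tgfb1 in CKO and below it in Control.

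The 29 genes listed as responsive to TGF-beta had 28 in the table, and 28 were kept. Of the 28, 18 were at least 2-fold higher and 0 were at least 2-fold lower, with a median log2 ratio of 1.77. Without the members, 16 of 25 were higher and the median was 1.70. The highest after Ltbp2 was Cdkn1a, for the cell cycle inhibitor p21, with 167 and 2711 reads and a log2 ratio of 3.43. Under the main setting it was followed by Il11, for a cytokine of fibroblasts, kept only through the CKO library, with 3 and 42 reads, whose fold of 9.33 has an interval from 2.98 to 47.1. With the smaller constant Il11 had 2.36, below the 2.84 of Tgfbi. With unadjusted values Il11 had 1.29 and Tgfbi had 3.12. The lowest were Itgb6, Cdkn2b with 0.34 and Snai1 with 0.37, and the intervals of Cdkn2b and Snai1 included 0. Nox4, an oxidase gene of the tubule, was the most abundant per kilobase in both libraries and had a log2 ratio of 0.44. The list therefore ran from genes within 2-fold to Ltbp2, and Smad7 was among those within 2-fold.

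Of these 28 genes, 6 were also on marker lists of fibroblasts, smooth muscle or myofibroblasts: Acta2, Col1a1, Col1a2, Col3a1, Postn and Tagln. Without them, 12 of 22 were at least 2-fold higher, beside 13.4% of all kept genes, and the median log2 ratio was 1.24. The 12 still include the members Ltbp2 and Tgfbi, and Il11, which was kept only through the CKO library. Since the list was chosen with earlier results known, nothing is read from this count.

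The 9 kept genes responsive to BMP, the other branch of the superfamily, had a median log2 ratio of 0.33. Of these, 2 were at least 2-fold higher, Id3 with 1.16 and Id1 with 1.10, and Atoh8 had 0.98. With equal totals 3 were at least 2-fold higher, and with unadjusted values 4. Hey1 was at least 2-fold lower, with 69 and 45 reads and -1.18. Its log2 ratio was -0.77 with equal totals and -0.12 with unadjusted values, within 2-fold. Msx1 had 0.18, with an interval that included 0, and Smad6 had 0.25. Id2 was the most abundant per kilobase, at 3328 reads in Control and 3979 scaled reads in CKO.

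Ankrd1 was set beside 24 genes responsive to YAP and TEAD, itself and Tgfb2 included, of which 23 were kept. At least 2-fold higher were 9 and at least 2-fold lower was 1, with a median log2 ratio of 0.74. Without Ankrd1 and Tgfb2, 7 of 21 were higher and the median was 0.45. Ccn1, for a secreted matricellular protein, had 642 and 7006 reads, for a log2 ratio of 2.86, and Myof had 2.65. Ccn1 was the next gene of this list after Ankrd1. At the low end, Nt5e had 6667 and 3972 reads and -1.33. It stayed below 0 under each scaling, but within 2-fold with equal totals and with unadjusted values, and with the latter 14 genes of the list were at least 2-fold higher. Igfbp3, the most abundant per kilobase in Control, had -0.52, which was above 0 with unadjusted values, and Dock5 had -0.26, above 0 also with equal totals.

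The 15 genes listed for the Hippo pathway, which restrains YAP, included those for YAP itself and for TEAD factors. The median log2 ratio of the list was 0.03. At least 2-fold higher was 1 of 15, against 2 with equal totals and 3 with unadjusted values. This was Tead2, with 78 and 305 reads and 1.37. Vgll4 had 0.68 and Mob1a had 0.55. Nf2, the most abundant per kilobase, had -0.35, Tead4 had -0.28 with an interval that included 0, and Mob1b had -0.19. These were above 0 with equal totals and with unadjusted values. Of the muscle ankyrin repeat family to which Ankrd1 belongs, Ankrd23 had 133 and 260 reads, for a log2 ratio of 0.38, and Ankrd2 was not analysed here. In Control, Ankrd23 had 58.4 reads per kilobase and Ankrd1 had 16.3. In CKO, Ankrd23 had 76.1 scaled reads per kilobase against the 524 of Ankrd1.

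**Figure D3:**
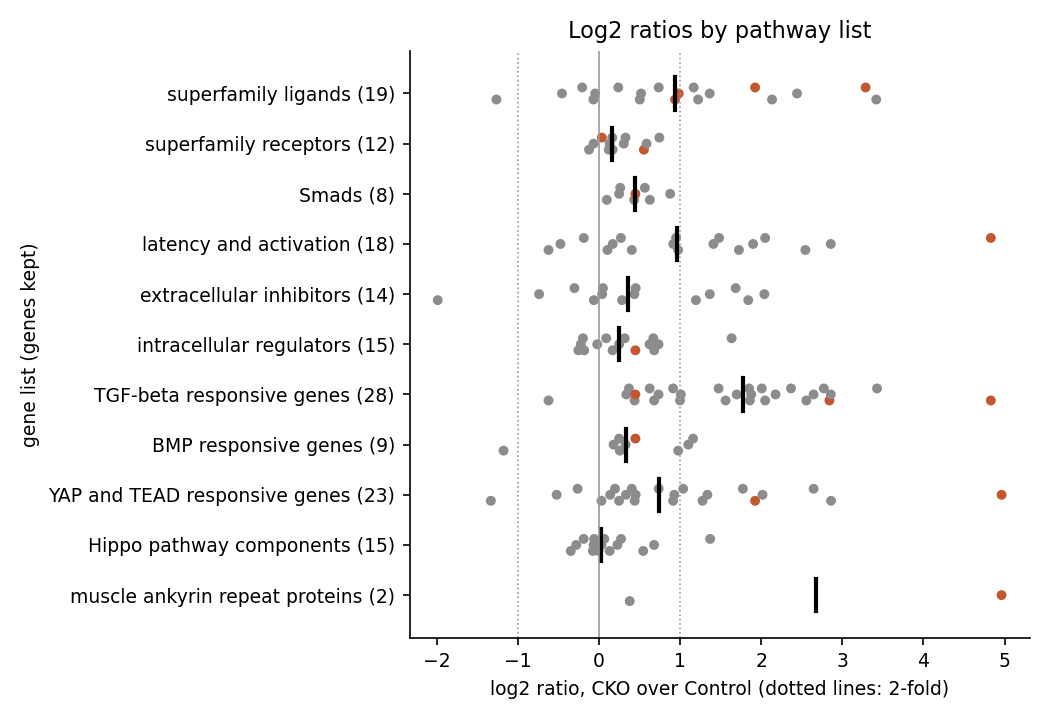
Log2 ratio of CKO over Control for each kept gene of 11 pathway lists, with members in orange, other genes in grey and the median as a black bar. The number of kept genes follows each name. Medians run from 0.03 for Hippo pathway components to 1.77 for TGF-beta responsive genes among lists of more than 2 genes, and all of them rise with equal totals or with unadjusted values.

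Log2 ratios fell with abundance across all kept genes. In 4 groups of nearly equal size by mean reads, the median was 0.31 in the lowest, 0.23 in the next, 0.00 in the third and -0.21 in the highest. The share at least 2-fold higher was 27.7%, 17.7%, 5.52% and 2.45% in the same order. The share at least 2-fold lower did not fall steadily, at 9.84%, 3.41%, 1.95% and 6.18%. Inhba was in the lowest group. Ltbp2, Tgfb1, Tgfb2, Tgfb3 and Tgfbi were in the next, Ankrd1 and Smad7 in the third, and Tgfbr1 and Tgfbr2 in the highest. The ligand and receptor genes thus sat in groups with different backgrounds.

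**Figure D4:**
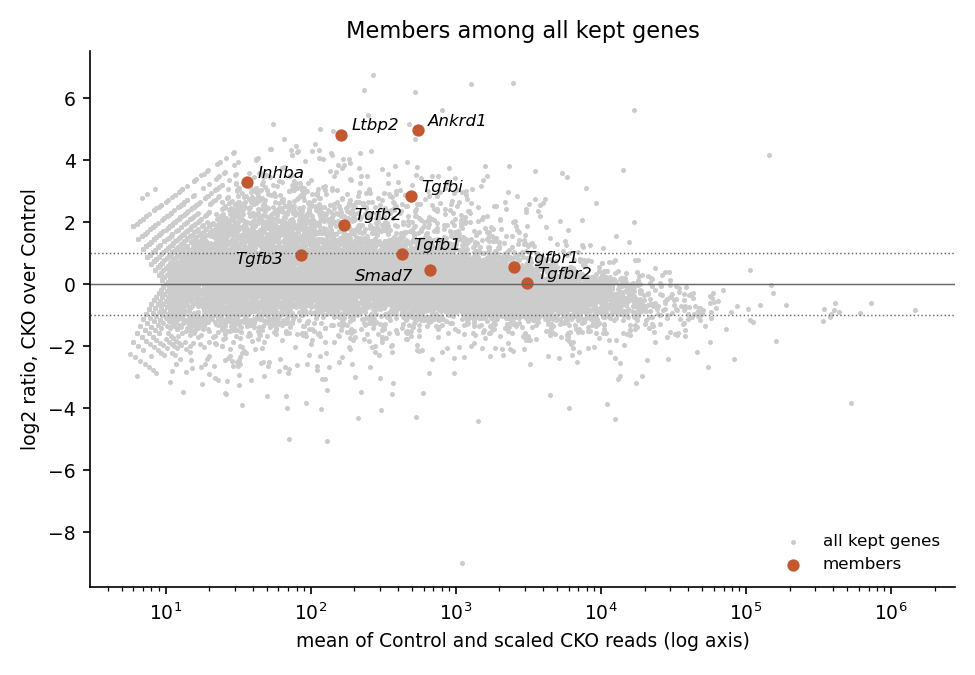
Log2 ratio of CKO over Control against the mean of Control and scaled CKO reads, on a log axis, for the 17469 kept genes (grey) and the 10 members (orange). Dotted lines mark 2-fold, with 5 members above the upper line, and Tgfbr1 and Tgfbr2 farthest to the right.

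Marker genes of cell types that express several of the members moved between the libraries. Of 8 macrophage markers, 8 were kept and 7 were at least 2-fold higher, with a median log2 ratio of 2.63 and a sum of 3410 reads in Control and 11208 scaled reads in CKO. The highest was Itgam with 3.05, then C1qa with 2.99, C1qc with 2.87, C1qb with 2.67, Cd14 with 2.58, Adgre1 with 2.55 and Cd68 with 2.17. Csf1r, the most abundant per kilobase in Control, had 0.51. Macrophages express Tgfbi and Tgfb1, and the part of these cells in their values was not tested. In bulk kidney, more cells of a type and more RNA per cell cannot be told apart.

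Fibroblast and pericyte markers were at least 2-fold higher in 6 of 7, with a median of 1.88 and a sum of 6543 reads in Control and 21730 scaled reads in CKO. Dcn was the most abundant per kilobase. Col1a1 had a log2 ratio of 2.65, Col3a1 had 2.56, Lum had 2.36, Col1a2 had 1.88 and Pdgfra had 1.04. Pdgfrb, a pericyte marker, had 0.48. Smooth muscle and myofibroblast markers were at least 2-fold higher in 3 of 5, with sums of 1562 and 4470. There, Tagln, the most abundant, had 2.37, Postn had 1.86, Acta2 had 1.70, Cnn1 had 0.94 and Myh11 had 0.02, with an interval that included 0. The part of these cells in the values of Ltbp2, Tgfb2 and Tgfb3 was not tested.

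The T cell markers summed to 44 reads in Control and 178 scaled reads in CKO, with 4 of 4 at least 2-fold higher. Cd3e and Cd8a were kept only through the CKO library, and with a filter at 50 scaled reads 2 were higher. Cd3g, the most abundant, had a log2 ratio of 2.22, Cd8a had 1.99, Cd3e had 1.72 and Cd4 had 1.70. Platelets carry much TGFB1 protein. Of their markers, Pf4 had 15 reads in Control and 40 in CKO, and Itga2b had 165 and 165. Ppbp had 8 and 10 reads, and Gp1bb had 5 and 6. Of the 2 kept, Pf4 had a log2 ratio of 0.79, with an interval that included 0, and Itga2b, the most abundant, had -0.58, with a median of 0.10 that was -0.27 with the smaller constant. The list summed to 193 reads in Control and 147 scaled reads in CKO, most of them from Itga2b. The ratio of Itga2b was above 0 with unadjusted values. The part of platelets in the value of Tgfb1 was not tested.

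Ankrd1 is best known from heart and skeletal muscle, and markers of these tissues had few reads in both libraries. Myh6 had 20 reads in Control and 14 in CKO, Actc1 had 4 and 26, Tnnt2 had 4 and 18, Tnni3 had 8 and 14 and Myh7 had 3 and 14. Together they had 39 reads in Control and 86 in CKO, beside 33 and 1589 for Ankrd1 alone. Per kilobase, the highest of them in CKO was Actc1, with 11.8 scaled reads against the 524 of Ankrd1. Acta1, Ckm, Mb and Myl2 were not analysed here. Of the 5, 3 were kept, and Tnni3, the most abundant per kilobase in Control, was not. Of the 3, 2 were at least 2-fold higher, Actc1 with a log2 ratio of 1.87 and Tnnt2 with 1.38 and an interval that included 0, and 1 was at least 2-fold lower, Myh6 with -1.02. Actc1 and Tnnt2 were kept only through the CKO library and Myh6 only through the Control library, so all 3 had to differ. The median was 1.38. With unadjusted values none of these passed 2-fold and Myh6 was above 0. The part of muscle cells in the value of Ankrd1 was not tested.

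The labelled tissue was checked by markers of kidney cells. Proximal tubule markers summed to 571426 reads in Control and 302059 scaled reads in CKO, with 3 of 9 at least 2-fold lower and a median log2 ratio of -0.62. With equal totals 1 of 9 was at least 2-fold lower and the median was -0.20, and with unadjusted values 1 of 9 and -0.04. Slc27a2, the most abundant per kilobase, had -1.23, Slc22a6 had -1.62 and Slc34a1 had -1.17, each below 0 under every scaling. Cubn had -0.37 and Slc22a8 had -0.08, both above 0 with equal totals and with unadjusted values, and Slc5a12 had 0.41. The part of this fall in the members' ratios was not tested.

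Other segments and vessels moved less under the main scaling. With equal totals the medians of their lists ran from 0.35 to 0.52, against -0.20 for proximal tubule markers, so the order turned. With unadjusted values they ran from 0.52 to 0.68, against -0.04. The thick limb and distal tubule list had a median of -0.03, with 0.47 for Umod, its most abundant gene, 0.08 for Slc12a3, -0.14 for Slc12a1 and -0.58 for Calb1, and summed to 139299 reads in Control and 169639 scaled reads in CKO. Collecting duct markers had a median of 0.10, with Aqp2, the most abundant, at 0.79, Atp6v1g3 at 0.35, Aqp3 at -0.15 and Slc4a1 at -0.27, and sums of 11394 and 14797. Podocyte markers had a median of -0.06, with Podxl, the most abundant, at 0.08 and Nphs1 at -0.20, and sums of 5263 and 5483. Endothelial markers had a median of -0.07, with Emcn, the most abundant, at 0.14, Tek at 0.08, Pecam1 at -0.07, Cdh5 at -0.16 and Kdr at -0.67, and sums of 8826 and 7941. The negative medians of these lists were above 0 with equal totals and with unadjusted values, and that of the thick limb list also with equal upper quartiles. The negative ratios of Slc12a1, Aqp3, Slc4a1, Nphs1, Pecam1 and Cdh5 were above 0 under the same pair of scalings, and that of Calb1 with unadjusted values. The intervals of Pecam1 and Tek included 0. No gene in these lists passed 2-fold under the main scaling.

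**Figure D5:**
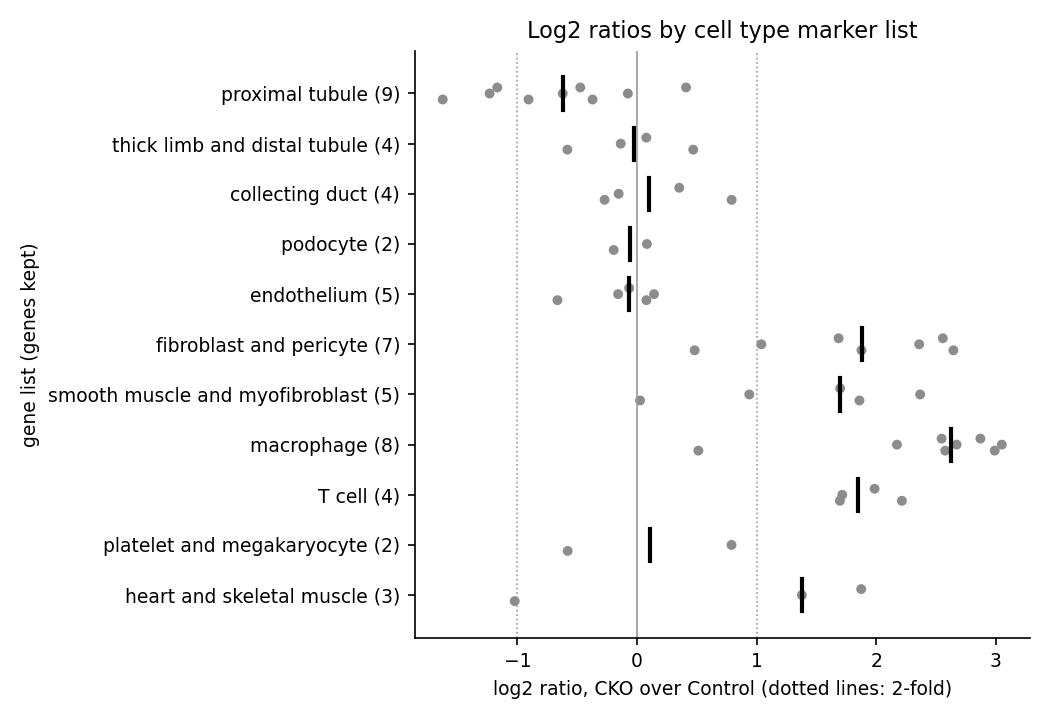
Log2 ratio of CKO over Control for each kept gene of 11 cell type marker lists, with the median as a black bar. The macrophage median is 2.63 and the proximal tubule median is -0.62, while medians of the thick limb, collecting duct, podocyte and endothelial lists lie between -0.07 and 0.10 and shift upward with equal totals.

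The gene named by the CKO label, Zc3h12b, had 47 reads in Control and 59 in CKO, or 39.3 scaled reads, with a log2 ratio of -0.25 and an interval from -0.83 to 0.33. A difference was not detectable at this depth, so these reads do not check the label.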

How the data were processed

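Whole-kidney RNA-seq of 2 libraries, 1 Control and 1 CKO, was used. STAR 2.7.3a for alignment, HTSeq for counting and DESeq2 for normalization are the tools named in the paper's methods. FPKM from Cufflinks 2.2.1 was not used. The sample records also list edgeR, so which tool normalized the deposited values is not settled here. The labels give build mm10. The deposited values are normalized counts in the authors' words. The deposited score values are whole numbers that the authors normalized, with no standard unit. Each column's lowest value minus 1 was subtracted (34 and 50), and CKO was multiplied by the median gene ratio, 0.667. With 1 library per group no test between groups was made. The members and gene lists were chosen with earlier results of these data known. Named genes were the members, all genes of lists of at most 8, the 3 highest, 3 lowest and most abundant of longer lists, the 3 on either side of Ankrd1, and Zc3h12b. Inha, Gdf1, Gdf6, Ltbp1, Ltbp3, Ltbp4, Mmp9, Rpp30 and Pcgf5 are outside this rule and were named after their values were seen. Levels between genes used the longest GENCODE M21 protein-coding transcript, known for 82.2% of kept genes. A planned comparison of protein sequences was not run. Alternatives were a pseudocount of 0.1 or 10, filters at 0 and at 50 scaled reads, equal totals, equal upper quartiles, values as deposited, a smaller constant, and thresholds of 1.5-fold and 4-fold. Median reads per gene were 284 in Control and 513.5 in CKO. The steps were run on simulated columns to which constants had been added, with equal numbers of genes raised and lowered, unlike these data. Recovering the constants there does not show that the deposited values hold such constants. Python 3.11.15, numpy 2.4.6, pandas 2.3.3, scipy 1.17.1 and matplotlib 3.10.9 were used.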

Additional observations from a re-analysis of the deposited data

How the results depend on the processing

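The number of members at least 2-fold higher was 9 with the values as deposited, against 5 under the main setting, and from 5 to 7 under the other alternatives at that threshold. Past 1.5-fold there were 7, and past 4-fold 4. The number lower was 0 under each. The members' median log2 ratio was 1.87 with equal totals, and from 1.38 to 1.69 under the others. Among all genes, 3870 were at least 2-fold higher with equal totals, 3574 with the values as deposited, 3801 past 1.5-fold and 749 past 4-fold. Lower were 437 with equal totals, 131 with the values as deposited, 617 with at least 50 scaled reads, 2423 past 1.5-fold and 166 past 4-fold. With equal totals, a stricter filter or another threshold, this follows from the alternative itself. The values as deposited differ in both the constant and the scaling, and the cause of their change was not tested. Of 60 log2 ratios of single members under alternatives, 46 stayed within their 95% interval, 14 moved outside it and 0 changed sign. Of 175 list medians, 37 moved and 10 changed sign. Of 440 list counts, 64 moved by more than 1.5 times. The log2 ratio of Inhba was 2.27 with a pseudocount of 10 and 1.89 with the values as deposited. That of Ltbp2 was 4.01 and 3.53. These genes had 6 and 10 reads in Control.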
